A study of Rattus norvegicus with 24 samples.

Results

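Left ventricles collected 12 weeks after the spinal cord was cut completely at a high thoracic level were compared with left ventricles from sham-operated rats. The comparison takes 12 of the 24 RNA-seq libraries of the series, 6 in the 12 week group and 6 in the sham group, chosen by the treatment and collection time in their labels. All rats were male Wistar rats, an outbred strain, and all tissue came from the free wall of the ventricle at its middle level. Sham rats had the dura opened at a high thoracic level with the cord left intact, and their hearts were taken 7 days after surgery. Their age is not given in the sources used here. The 2 groups therefore differ in the weeks since surgery as well as in the injury, and these cannot be told apart. The labels number the sham libraries 63 to 68 and the 12 week libraries 83 to 88, so any effect of handling that follows these numbers also cannot be told apart from the group.

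The sympathetic nerves of the heart arise from the upper thoracic cord, and the brain drives them through descending pathways that a high thoracic transection cuts. The vagus nerve, which slows the heart, does not run through the cord and is spared. Loss of sympathetic drive and of blood pressure lowers the load on the ventricle, which is known to become smaller when it is chronically unloaded. The comparison asks which RNA levels of the ventricle differ long after such an injury.

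The deposited table gives each gene as an Ensembl ID with no name, and 0 of its 23098 IDs could be matched to a symbol in the gene table used here. Genes are therefore described as groups by direction, size and abundance, and 4 IDs are given in full. Markers of heart muscle or of other cell types could not be looked up, so the labelled tissue was not checked against them. In ventricular tissue, a change in how many cells of a type are present and a change in RNA per cell cannot be told apart.

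The 12 week libraries held 15002476 to 44709028 counts and the sham libraries 27097306 to 70340174. The depths overlapped, and a two-sided exact permutation test did not separate the groups (p = 0.0736, adjusted p = 0.184 over 5 such tests, n = 6 and 6). Between 16264 and 17410 genes were detected per library at 12 weeks and between 16840 and 17782 in sham (exact permutation p = 0.186, adjusted p = 0.233). The 10 most abundant genes took 32.4 ± 2.11% of the counts at 12 weeks and 34.4 ± 1.20% in sham (SD, n = 6, exact permutation p = 0.0736, adjusted p = 0.184).

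One 12 week library stood apart from its group. Replicate 3 had a median Spearman correlation of 0.977 with the other 12 week libraries, while those had 0.988 to 0.990 and the sham libraries 0.992 to 0.994. Among the 11607 genes with a mean log2 CPM of at least 1 (CPM is the count scaled to a common library total, corrected for composition), replicate 3 lay over 2-fold from the mean of the other 12 week libraries in 545. The other 12 week libraries did so in 59 to 126 genes and the sham libraries, each against the rest of sham, in 13 to 50. Among all 15065 tested genes, replicate 3 was the highest of the 24 libraries by over 2-fold in 117. No other 12 week or sham library had more than 4 such genes. Results that rest on replicate 3 are given with and without it.

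**Figure D1:**
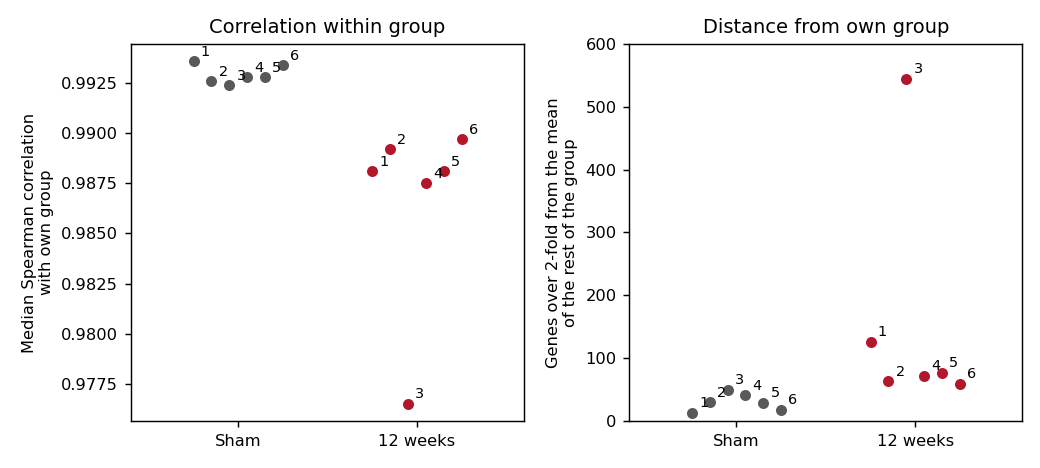
Each point is 1 library, numbered by replicate, in the sham and 12 week groups. The left panel shows the median Spearman correlation of log2 CPM with the other libraries of the group (the axis does not start at 0), and the right panel the number of genes over 2-fold from the mean of the rest of the group; 12 week replicate 3 lies at 0.977 and 545 genes.

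The spread between libraries was wider at 12 weeks than in sham. The biological coefficient of variation, the between-library variation of a gene's level beyond counting error, was 0.214 at 12 weeks and 0.124 in sham when each group was fitted alone. Without replicate 3 it was 0.16 at 12 weeks, still above the sham value. At 1 day it was 0.153 and at 3 days 0.177, so these groups also lay above sham. No test was made of these differences.

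Relative to sham, 1699 genes had risen at 12 weeks and 1635 had fallen, which is 11.3% and 10.9% of the 15065 genes tested and 22.1% together. A gene was called when its adjusted p was under 0.05 by edgeR's quasi-likelihood test with Benjamini-Hochberg adjustment, fitted over all 24 libraries. The median log2 fold change over all tested genes was 0.0074; the scaling of the libraries centres the fold changes near 0, which also bears on the balance of rises and falls. Most called changes were small. The median called change was 1.37-fold, 61.5% of the called genes changed by under 1.5-fold, and the tenth and the ninetieth percentiles of size were 1.16-fold and 2.43-fold. Changes of over 2-fold numbered 287 rises (1.91% of the tested genes) and 273 falls (1.81%), together 3.72%.

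**Figure D2:**
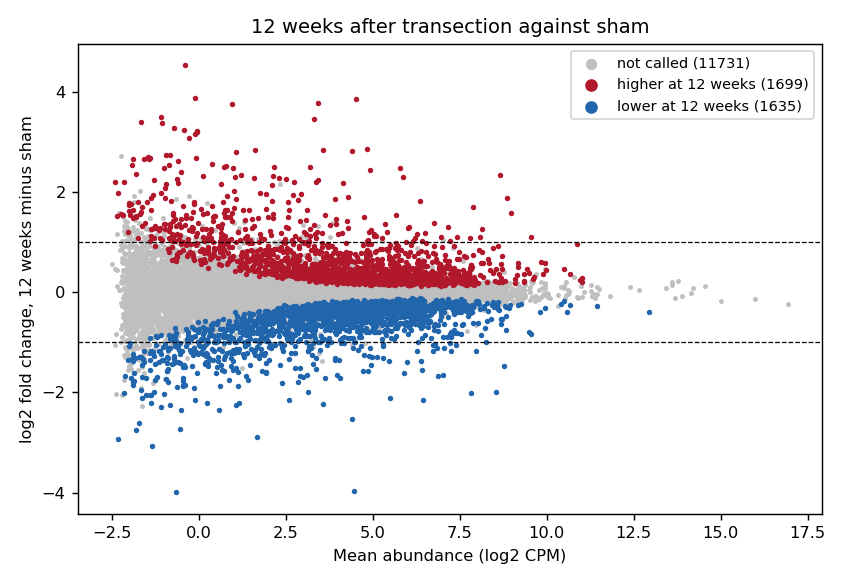
Each point is 1 of the 15065 tested genes, placed by its mean abundance (log2 CPM) and its log2 fold change, 12 weeks minus sham. Red points are the 1699 genes called higher, blue points the 1635 called lower and grey points the 11731 not called; dashed lines mark 2-fold, and large fold changes gather among genes of low abundance.

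Without replicate 3 the fit called 1675 rises (11.0%) and 1666 falls (10.9%) among 15232 genes tested, or 21.9%. The totals hardly moved, but their membership did. Among the genes called with all libraries, 1408 higher (82.9%) and 1411 lower (86.3%) were also called without it in the same direction, and 0 were called in opposite directions. Another 291 higher and 224 lower genes were no longer called, and 256 higher and 253 lower genes that had been tested but not called with all libraries were called without it. Of the genes over 2-fold with all libraries, 254 of 287 higher and 245 of 273 lower were still called. Membership was compared for no other left-out library. Leaving out sham replicate 1 lowered the totals to 1384 higher and 1343 lower genes, so a loss of calls is not particular to replicate 3.

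Replicate 3 carried many of the largest rises. Among the 65 genes called higher by over 4-fold, replicate 3 had the highest level of all 24 libraries in 46, and without it 59 were still called but only 39 remained over 4-fold. Among the 29 genes called lower by over 4-fold, replicate 3 was the lowest of all libraries in 7, and 28 were still called without it, 19 of them over 4-fold. Replicate 3 took part in choosing these genes, so the counts are a description. Over all 15065 tested genes, replicate 3 was the highest of the 24 libraries in 2351 and the lowest in 2221. The largest shift was in a gene whose log2 fold change was 2.74 with replicate 3 and 0.12 without it, where it was not called. That gene had 8.14 CPM in replicate 3 and at most 0.524 CPM in any other library of the series.

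**Figure D3:**
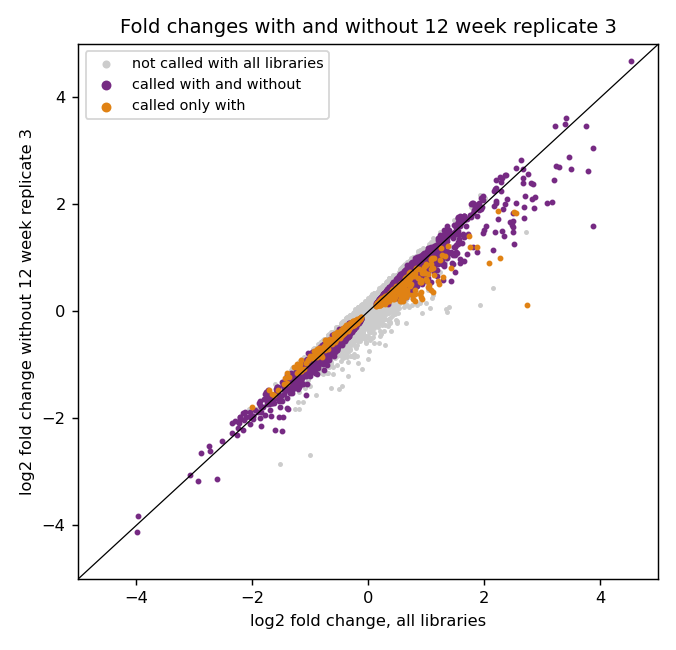
Each point is 1 tested gene, with its log2 fold change (12 weeks minus sham) from all libraries on the horizontal axis and without 12 week replicate 3 on the vertical axis. Purple genes were called both ways, orange genes only with replicate 3 and grey genes not with all libraries; many of the large rises lie below the diagonal, where the change is smaller without replicate 3.

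The called genes were also counted by how many libraries lay on the called side. These libraries made the calls, so most must lie on that side, and the counts are a description. All 6 of the 12 week libraries lay above the sham mean in 1362 of the 1699 risen genes (80.2%), and all 6 below it in 1503 of the 1635 fallen genes (91.9%). In 315 higher and 132 lower genes 1 library lay on the other side. That library was replicate 3 in 129 and 60 of these genes, replicate 1 in 98 and 19 and replicate 2 in 29 and 25. At the other end, 6 genes were called higher with only 3 of 6 libraries above the sham mean.

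A stricter view asks that no 12 week library overlap any sham library. This held for 660 higher genes (4.38% of those tested) and 786 lower genes (5.22%), together 9.6%. Among called genes, 37.1% of those higher and 45.4% of those lower met it, and 73 genes without overlap were not called. Without replicate 3, 929 higher and 1007 lower of the 15065 genes had no overlap, or 12.9%. Leaving out any library can only keep or add such genes, and the count without another library was not made.

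Each 12 week library was also set against genes called from the other 5. The left-out library then played no part in the call, although the sham libraries did. Left-out libraries lay above the sham mean in 79.9 to 96.8% of the genes called higher by the others, and below it in 84.0 to 98.1% of those called lower. Over all tested genes the libraries lay above the sham mean in 48.4 to 51.0%. These are not the shares to be seen with no change, because the same sham libraries entered the calls. Replicate 3 gave the lowest share in both directions, and replicate 4 the highest for the genes called higher. Replicate 3 thus lay less often on the side of the other libraries, but did so in 79.9% and 84.0% of the genes. Its median log2 difference from the sham mean in those genes was 0.28 and -0.40, within the range of the other 5 libraries, which ran from 0.26 to 0.37 and from -0.33 to -0.45.

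**Figure D4:**
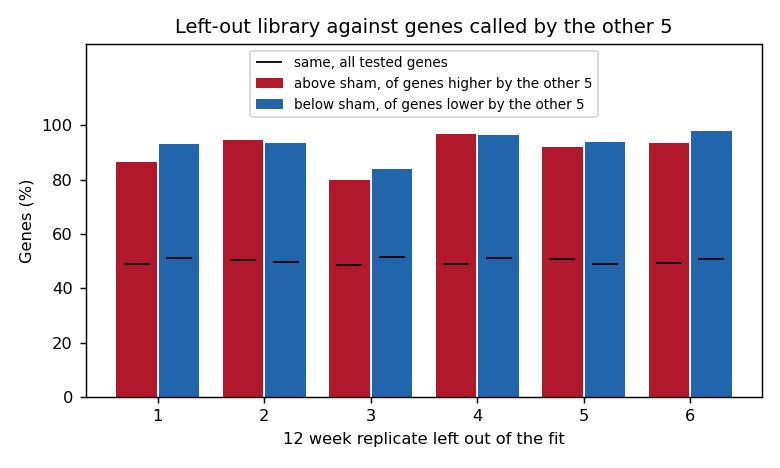
For each 12 week replicate left out of the fit, bars give the percentage of genes called higher by the other 5 in which it lay above the sham mean (red) and of genes called lower in which it lay below (blue). Black marks give the same percentages over all tested genes, near 50%, which is not what the bars would show with no change. Replicate 3 has the lowest bars, at 79.9% and 84.0%.

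The share of genes called and the size of their changes varied with abundance. The tested genes were divided into 4 levels of equal size by mean abundance. In the lowest level, at 0.177 to 2.38 CPM, 13.8% of genes were called, with a median called change of 2.25-fold. In the highest level, from 37.1 CPM upward, 28.0% were called, with a median called change of 1.24-fold. The median standard error of a log2 fold change was 0.319 in the lowest level and 0.0735 in the highest. Of the 287 rises over 2-fold, 170 were in the lowest level and 28 in the highest, and of the 273 falls over 2-fold, 161 and 25. Rises outnumbered falls in the highest level, with 585 against 468, while the other levels had 261 against 260, 399 against 439 and 454 against 468 in order of rising abundance. Without replicate 3 the highest level had 560 rises against 522 falls, and the others 249 against 224, 417 against 429 and 438 against 489.

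Abundant genes were among those called. Of the 61 genes with a mean of at least 1000 CPM, 7 were higher and 6 lower, or 21.3% against 22.1% of all tested genes, and log2 fold changes lay between -0.39 and 0.97. Of the 1298 genes with a mean of at least 100 CPM, 220 were higher and 169 lower, 13 and 14 of them by over 2-fold, and log2 fold changes lay between -2.01 and 2.35. Genes called higher together made up 8.32 ± 0.284% of the counts in sham and 11.5 ± 0.515% at 12 weeks (SD, n = 6), and genes called lower 9.40 ± 0.254% and 7.13 ± 0.453%. Genes over 2-fold higher rose from 0.358 ± 0.0329% of the counts in sham to 0.975 ± 0.402%, and the latter was 0.835 ± 0.232% without replicate 3. Genes over 2-fold lower went from 0.533 ± 0.0443% to 0.206 ± 0.017%. The genes were chosen for these differences, so the shares are given with no test; they show that changes over 2-fold involved a small part of the RNA.

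The same genes were read in the other injured groups, which share the sham libraries with this comparison. The 287 genes over 2-fold higher at 12 weeks had a median log2 fold change against sham of 1.46 in the 12 week group, with 0.61 at 1 day and 0.50 at 3 days. For the 273 genes over 2-fold lower the medians were -1.31, -0.30 and -0.28 in the same order. Over all tested genes the medians were 0.0074, 0.0005 and 0.0076. The genes were picked on the 12 week libraries and the sham libraries enter every value, so both the larger values at 12 weeks and medians of the same sign at 1 and 3 days follow in part from the choice. The medians over all tested genes are not what such a choice would give with no change, and how much of the 1 and 3 day medians it accounts for was not tested.

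For 4 genes the level in every library is given. They had the 2 largest rises and the 2 largest falls among 563 higher and 660 lower genes that were called, reached a mean log2 CPM of 1 and had no overlap between the groups. The direct comparisons of 12 weeks with 1 and 3 days use the 12 week libraries on which these genes were picked, so their p-values favour a difference and are given as a description. The comparisons of 1 and 3 days with sham use the sham libraries on which the genes were picked. Their p-values favour a change in the 12 week direction and are likewise a description. Calls at other times stand beside the shares of all tested genes so called. A call of lower than sham was made for 12.1% at 1 day and for 8.59% at 3 days, and a call in either direction for 33.9% between 12 weeks and 1 day and for 31.3% between 12 weeks and 3 days.

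ENSRNOG00000043098 had the largest rise among the 563 higher genes so chosen. Its level in sham was 2.81 CPM at the lowest, 4.53 at the median and 7.14 at the highest, and at 12 weeks it was 18.4, 45.3 and 216 CPM. All 12 week libraries lay above all sham libraries, and replicate 3, at 216 CPM, lay far above the next, at 57.3 CPM. The log2 fold change was 3.87 (SE 0.548, edgeR adjusted p = 2.96e-05) with all libraries and 3.06 (SE 0.424, adjusted p = 2.79e-05) without replicate 3, and over all alternatives the adjusted p lay between 5.93e-11 and 0.000436. Levels ran from 2.47 to 20.4 CPM at 1 day and from 2.91 to 16.4 CPM at 3 days, and 1 library at 1 day passed the lowest 12 week library, at 18.4 CPM. Against sham the log2 fold changes of 1.26 at 1 day and 0.56 at 3 days were not called (edgeR adjusted p = 0.0759 and 0.514). Compared directly, the 12 week group exceeded the 1 day group by 2.61 on the log2 scale (edgeR adjusted p = 0.000404) and the 3 day group by 3.31 (adjusted p = 6.59e-05).

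ENSRNOG00000007545 had the next largest rise among them. Its lowest, median and highest levels were 1.79, 2.42 and 3.90 CPM in sham and 5.99, 19.3 and 136 CPM at 12 weeks. The groups did not overlap, but replicate 3 at 136 CPM was far above the other 12 week libraries, which reached 23.1 CPM. The log2 fold change was 3.78 (SE 0.597, edgeR adjusted p = 9.22e-05), and without replicate 3 it was 2.62 (SE 0.404, adjusted p = 8.43e-05), with adjusted p from 1.07e-08 to 0.00155 over all alternatives. On a linear scale the rise was 13.8-fold with all libraries. At 1 day the gene stood at 0.865 to 5.06 CPM and at 3 days at 0.811 to 4.25 CPM, over the range of sham, and the log2 fold changes against sham of -0.02 and -0.28 were not called (edgeR adjusted p = 0.985 and 0.805).

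ENSRNOG00000020407 had the largest fall among the 660 lower genes so chosen. It stood at 18.0, 32.7 and 56.5 CPM in sham at the lowest, median and highest, and at 0.836, 1.19 and 6.77 CPM at 12 weeks. All 12 week libraries lay below all sham libraries, and replicate 2 was the highest of the 12 week group. The log2 fold change was -3.96 (SE 0.679, edgeR adjusted p = 0.000209), or -3.82 without replicate 3 and -4.73 without replicate 2. The levels at 1 day, 5.17 to 44.6 CPM, and at 3 days, 3.09 to 86.1 CPM, overlapped both sham and the 12 week group. Against sham the log2 fold changes of -0.53 at 1 day and -0.60 at 3 days were not called (edgeR adjusted p = 0.531 and 0.514). The 12 week group was below the 1 day group, at -3.43 on the log2 scale (edgeR adjusted p = 0.00039), and below the 3 day group, at -3.36 (adjusted p = 0.000563).

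ENSRNOG00000020338 differed from the other 3 genes in being low at every time after transection. Its level in sham was 7.09, 8.39 and 16.8 CPM at the lowest, median and highest, and at 12 weeks 0.171, 1.21 and 2.85 CPM. Every injured library of the series lay below every sham library, with 0.122 to 2.01 CPM at 1 day and 0.0634 to 0.9 CPM at 3 days. At 12 weeks this was a condition of the choice of the gene. How many of all tested genes lie below sham in every injured library was not counted. Against sham its log2 fold change was -2.88 at 12 weeks (SE 0.493, edgeR adjusted p = 0.000206), -3.58 at 1 day (adjusted p = 1.96e-05) and -4.75 at 3 days (adjusted p = 5.86e-06). Without replicate 3 the 12 week value was -2.65. The 12 week level exceeded that at 3 days by 1.87 on the log2 scale (edgeR adjusted p = 0.0194). It was not called different from that at 1 day (0.70, edgeR adjusted p = 0.312). Counts were low, at 2 to 30 per library at 3 days and 5 to 99 at 12 weeks, and the levels at these times overlapped.

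**Figure D5:**
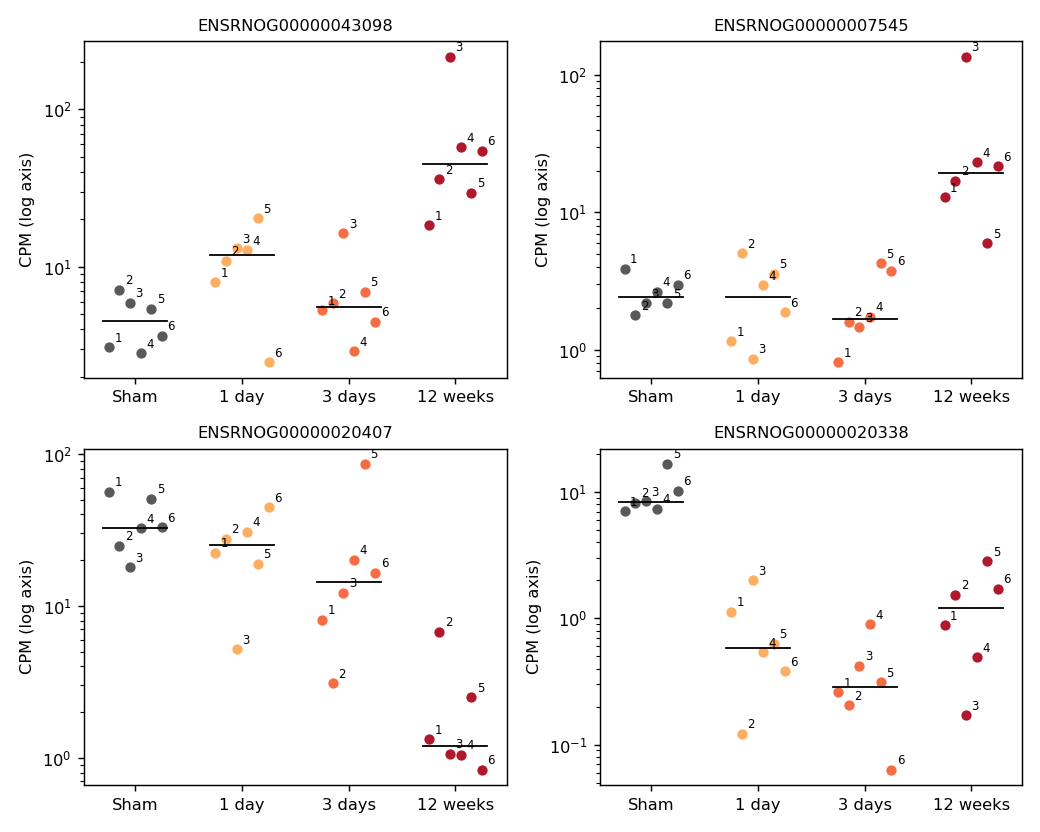
Each panel shows 1 gene in all 24 libraries, with CPM on a log axis, points numbered by replicate and a line at the median of each group of 6. The upper genes are high at 12 weeks, where replicate 3 reaches 216 and 136 CPM; ENSRNOG00000020407 is low at 12 weeks, and ENSRNOG00000020338 is below all sham libraries at all 3 times.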

How the data were processed

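Total RNA from frozen left ventricle was depleted of ribosomal RNA and sequenced as strand-specific paired-end libraries, per the labels' protocols. The authors deposited raw counts per gene in 1 table labelled as protein-coding. The submitters' processing notes name featureCounts 2.0.6, STAR 2.7.11a, FastQC 0.12.1 and the build mRatBN7.2. How strand and reads shared by several genes were handled is not given in the sources used here, so overlapping genes and near-identical copies may share reads. The table has 26166 lines for 23098 IDs. The 781 IDs on several lines hold identical counts on each, and each ID was used once. Even numbers made up 58.1 to 61.1% of counts from 1 to 200 in the 12 libraries, so a count may not be 1 independent fragment.

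Counts were fitted in R 4.3.3 with edgeR 4.0.16 (filterByExpr by group, TMM factors, 1 term per group, all 24 libraries, 20 residual degrees of freedom, quasi-likelihood F test, two-sided, Benjamini-Hochberg over 15065 genes). Standard errors were taken as the size of the log2 fold change over the root of F. CPM uses TMM-scaled totals; correlations and distances from a mean use log2(CPM + 0.5). Without 12 week replicate 3 the filter keeps 15232 genes. Single values per library were compared by two-sided exact permutation tests over 924 arrangements, with a smallest p of 0.00216. DESeq2 1.42.0, limma 3.58.1 and other alternatives are given in the closing section. The steps were tested on simulated data.

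The labels do not state that every library is from its own rat; otherwise the p-values reflect spread between samples that may be partly technical. Replicate pairs differed by far more than sampling noise (chi-square per degree of freedom of at least 13.3). Gene lists, cell type markers and a rule for named genes had been written down, but they need symbols and were not run. The rule's fallback gave the 4 printed IDs: the 2 largest rises and falls among called genes at a mean log2 CPM of 1 or more and with no overlap between the groups. The comparison, lists and rules were chosen with earlier results of these data known.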

Additional observations from a re-analysis of the deposited data

Results flagged for a closer look

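A gap test compares the distance of the highest or lowest library to its nearest neighbour with the whole range of its group of 6. Of 46 groups of values looked at, it picked 15. The sham counts of genes highest or lowest by over 2-fold are among the 46 but hardly varied and were not tested. By chance the test picks about 1 in 20 where values are normally distributed, which was not checked here. Most of the picks were 12 week replicate 3. That library was already known for its low correlation with its group, so the chance rate does not apply to it and its values are a description. It stood apart in its correlation with the group (0.977, the others 0.988 to 0.990), in genes over 2-fold above the sham mean (420, the others 97 to 180) and below it (377, the others 102 to 202), and in genes over 2-fold from its own group (545). The counts of 420, 377 and 545 are among the 11607 genes with a mean log2 CPM of at least 1. Among all 15065 tested genes, replicate 3 was the lowest of the 24 libraries in 2221 (the others in 386 to 992). It was the highest by over 2-fold in 117 and the lowest by over 2-fold in 16. It was the highest 12 week library in 147 of the 287 genes called over 2-fold higher (51.2%), where each other library was so in 17 to 37. Over all tested genes it was the highest 12 week library in 27.2%. Its share of 84.0% for the genes called lower by the other 5 libraries was also apart from theirs, 93.1 to 98.1%. These measures come from the same library and are not independent of each other.

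Among the printed genes, replicate 3 stood apart at 12 weeks for ENSRNOG00000043098 (216 CPM, the others 18.4 to 57.3) and ENSRNOG00000007545 (136 CPM, the others 5.99 to 23.1). Replicate 2 stood apart at 12 weeks for ENSRNOG00000020407 (6.77 CPM, the others 0.836 to 2.51), and sham replicate 5 for ENSRNOG00000020338 (16.8 CPM, the others 7.09 to 10.3). At 3 days, replicate 3 stood apart for ENSRNOG00000043098 (16.4 CPM, the others 2.91 to 6.94) and replicate 5 for ENSRNOG00000020407 (86.1 CPM, the others 3.09 to 20.2).

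The 12 week level differed from an earlier injured group by direct edgeR test in all 4 printed genes, which had been picked for their 12 week levels in the same libraries. The log2 fold changes of 12 weeks against 1 day and against 3 days were 2.61 and 3.31 for ENSRNOG00000043098, 3.81 and 4.06 for ENSRNOG00000007545, and -3.43 and -3.36 for ENSRNOG00000020407. For ENSRNOG00000020338, at low counts, the difference of 1.87 from 3 days was called and that from 1 day was not. With no sham group at each time, these tests compare groups and do not compare effects of the injury.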

How the results depend on the processing

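The counts of genes higher, lower and over 2-fold with all libraries, and of genes higher and lower without 12 week replicate 3, stayed within 1.5 times their value under all alternatives run for them, and the 4 printed IDs kept their direction and their call in each. The higher and lower counts were lowest without sham replicate 1 (1384 and 1343) and highest with limma-voom with sample weights (1965 and 1952). Leaving out 1 library of either group gave 1384 to 1675 higher and 1343 to 1666 lower genes, and 253 to 319 and 224 to 306 over 2-fold. DESeq2 called 1932 and 1795, limma-voom 1641 and 1704, edgeR with DESeq2 size factors 1713 and 1620, no filter on low counts 1514 and 1563, and a fit of only the 12 libraries 1488 and 1512. With counts thinned to the shallowest library, 1418 and 1376 genes were called. In the lowest level of abundance thinning left 151 higher and 154 lower genes of 261 and 260, so depth limits the calls there. Sample weights and thinning were chosen after seeing the data.

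Replicate numbers are shared by the groups, and no sign was seen that they pair the libraries. Deviations from the group means correlated at -0.06 to 0.14 for the same number and at -0.15 to 0.20 for different numbers. Of the 6 libraries at 12 weeks, 1 correlated best with its own number in sham. So few pairs cannot show that there is no pairing. With the replicate block 1508 genes were higher and 1560 lower, and without replicate 3 they were 1520 and 1590; the block ended no call of a printed ID.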
